A study of Mus musculus with 12 samples.

Results

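The 10 genes followed here act in the choice between secretory and absorptive fate in the intestinal epithelium, or later in secretory cells. They were measured in mucosal scrapings of the mouse ileum. They were 8 transcription factors of the secretory lineage (Atoh1, Gfi1, Spdef, Creb3l1, Foxa1, Foxa2, Foxa3 and Klf4), the Notch target and repressor Hes1, and the Notch ligand Dll1. All 10 were found by symbol among the 55891 genes of the deposited table. They were chosen on results of these same samples, in particular their differences between the genotypes, so those differences are given as a description and not as a test. Transcript levels had been measured by mRNA sequencing in 12 mice at baseline, 6 labelled ERBB3-dIE and 6 labelled Erbb3-FF, and were deposited as TPM, transcript abundance per length and scaled to a fixed library total. The gene altered, Erbb3, codes for a partner receptor in ErbB signalling, and the series title names its part in the small intestinal barrier. The ERBB3-dIE mice were 3 of litter B (mice 1 to 3) and 3 of litter A (mice 4 to 6), and the Erbb3-FF mice were 2 of litter B (mice 1 and 2) and 4 of litter A (mice 3 to 6). The sources used here do not state strain, age or the promoter behind either genotype.

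As background, epithelial cells that leave the crypt base become absorptive enterocytes or secretory cells, and Notch signalling between neighbours decides which. A cell whose Notch receptor is engaged by Dll1 or Dll4 on its neighbour makes Hes1, which represses Atoh1, and it takes the absorptive path. A cell that escapes this keeps Atoh1, makes Dll1 itself, and turns on factors that carry it to a goblet, Paneth, enteroendocrine or tuft identity.

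In every library the TPM summed to 1000000, so the reads behind each are unknown, and 12344 to 13364 genes reached 1 TPM. Gene-level Erbb3 was 104 to 206 TPM in ERBB3-dIE mice and 87.3 to 151 TPM in Erbb3-FF mice, so it did not check the labels. The 8 general epithelial markers summed to 8089 to 11677 TPM over the 12 libraries, and 6 of 6 goblet cell markers were present in all of them. Several libraries stood apart. Erbb3-FF mouse 3, labelled litter A, had 40.3 TPM over 5 stem cell markers, against 197 to 234 TPM in the other 3 Erbb3-FF mice of that litter, and 18192 TPM over 6 enterocyte markers, against 6423 to 7181 TPM. The 6 B cell markers summed to 285, 134 and 113 TPM in Erbb3-FF mice 1, 2 and 3, and no other library exceeded 15.4 TPM. The 6 smooth muscle markers summed to 113 TPM each in ERBB3-dIE mice 4 and 5 and to at most 36.3 TPM elsewhere. Of the TPM in Erbb3-FF mouse 5, 10.2% came from ribosomal sequence, and 10.8% in mouse 6, where no other library exceeded 1.62%. Counts of the 10 genes called between genotypes are given with and without these libraries, and other results only in part.

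All 10 genes had at least 1 TPM in each of the 12 libraries, so all passed the filter on low values in both genotypes. Klf4 was the most abundant of them, with a mean of 127 TPM over the 12 libraries (86.2 to 157), above every value of the other 9. Spdef (mean 34.5 TPM), Creb3l1 (30.4), Atoh1 (25.8) and Hes1 (23.6) followed, with ranges that overlapped one another. Foxa1 averaged 15.4 TPM and Foxa3 13.4 TPM, also with overlapping ranges, and Dll1 averaged 9.09 TPM. Gfi1 (3.80 TPM) and Foxa2 (2.78 TPM) were lowest and overlapped each other, and the authors' mean normalised counts were 105 for Gfi1 and 57.7 for Foxa2, the thinnest read support among the 10.

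**Figure D1:**
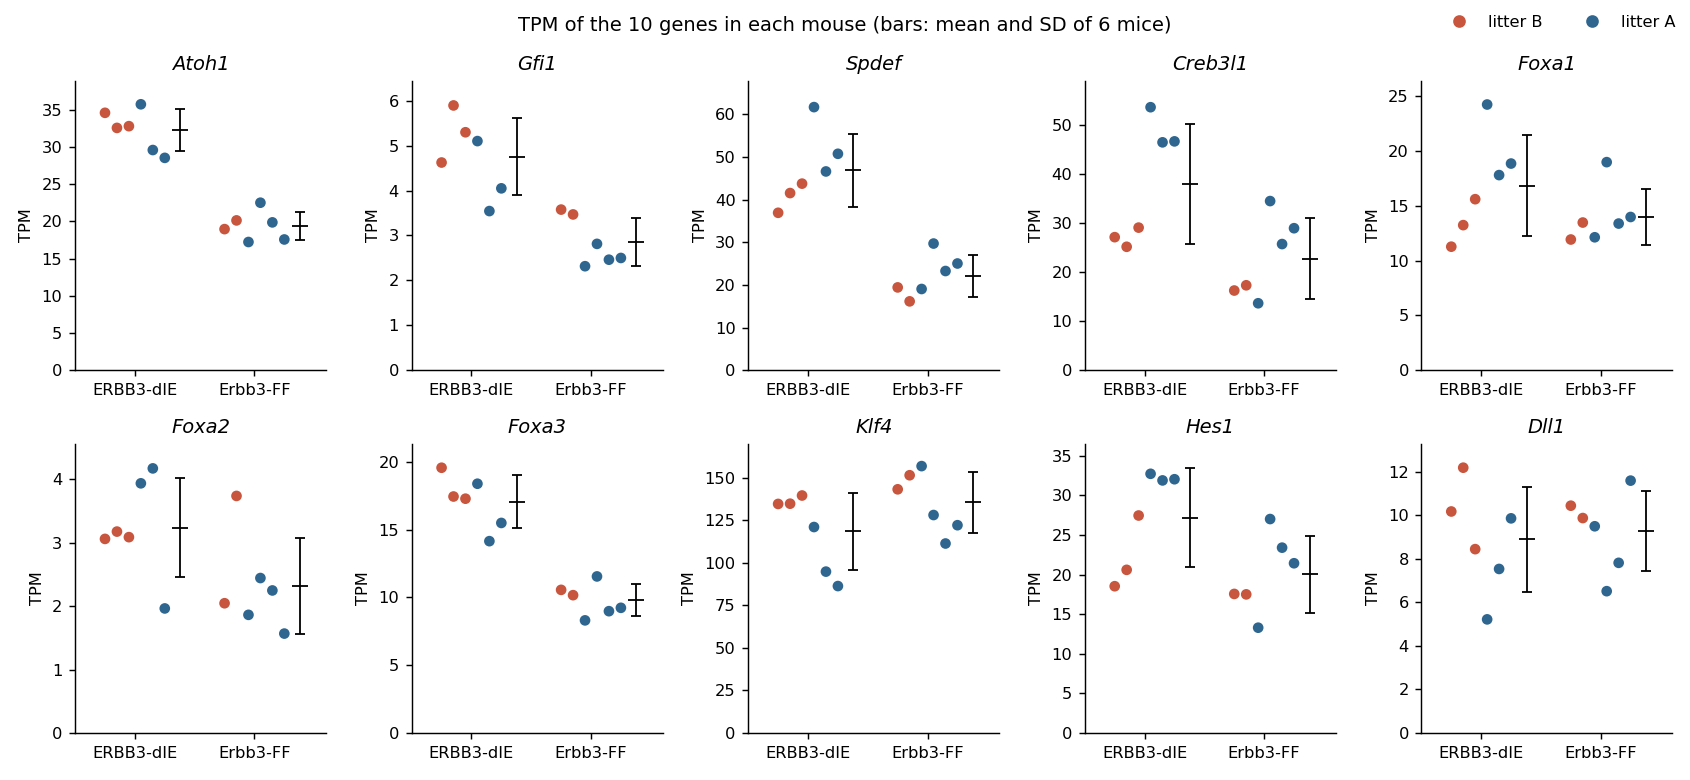
TPM of the 10 genes in each mouse, with ERBB3-dIE left of Erbb3-FF, mice 1 to 6 of each genotype from left to right, litter by colour, and the mean and SD of 6 mice at the right of each group. Atoh1, Spdef and Foxa3 do not overlap between the genotypes, while Creb3l1, Foxa1, Klf4 and Hes1 also separate by litter in most mice.

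Atoh1 (ENSMUSG00000073043), the bHLH factor that goblet, Paneth and enteroendocrine cells need in order to form, had its lowest, median and highest value at 28.5, 32.7 and 35.7 TPM in ERBB3-dIE mice, against 17.2, 19.4 and 22.5 TPM in Erbb3-FF mice. All 6 ERBB3-dIE values lay above all 6 Erbb3-FF values. The means were 32.3 ± 2.79 TPM in ERBB3-dIE and 19.4 ± 1.93 TPM in Erbb3-FF (SD, n = 6 each), 66.7% higher in ERBB3-dIE. The difference on the log2(TPM + 0.5) scale was 0.71 (SE 0.09, 95% interval 0.52 to 0.91). In bulk tissue, more cells that express a gene and more RNA per cell cannot be told apart, here and in every result that follows.

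Foxa3 (ENSMUSG00000040891), a forkhead factor found in goblet cells, ran close beside Atoh1. Its lowest, median and highest value was 14.1, 17.4 and 19.6 TPM in ERBB3-dIE mice, against 8.30, 9.69 and 11.5 TPM in Erbb3-FF mice, again without overlap. The log2 difference was 0.74 (SE 0.10, 95% interval 0.52 to 0.96). Divided by Atoh1 in the same library, Foxa3 gave a ratio of 0.53 ± 0.03 in ERBB3-dIE mice and 0.51 ± 0.04 in Erbb3-FF mice (SD, n = 6 each). Over all 12 libraries the ratio stayed between 0.452 and 0.566, with a coefficient of variation of 6.46%. Of 12604 tested genes divided by Atoh1 in this way, Foxa3 had the smallest coefficient of variation, and the median gene had 37.1%. Next in that order came Bcas1 (7.26%), a goblet cell gene of the list used below, and Rep15 (9.62%), both named here after their values were seen. Such a ratio is taken within a library and does not depend on how libraries are scaled. Its variation includes the genotype difference, on which the genes were chosen. A gene that differs between genotypes by a factor near that of Atoh1 thus has a small coefficient of variation, so nothing is read from the order.

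The promoters of Atoh1 and Foxa3, whose levels moved together, and of Spdef, whose difference between genotypes was largest, are shown from RefSeq. Each runs from 250 bases before to 50 bases after the annotated start, 5′ to 3′ on the gene's strand, on build GRCm38.p6, which is not the GRCm39 build of the table. Capitals mark matches on either strand to 5 short motifs: CACCC, bound by KLF factors, CAGNTG, an E-box of the kind bHLH activators bind, CACNAG, the N-box bound by Hes factors, TGGGAA, the core bound by the Notch partner RBPJ, and TGTTTAC, bound by forkhead factors. No 2 matches overlap in these 3 promoters.
Atoh1, chr6:64728875-64729174, plus strand: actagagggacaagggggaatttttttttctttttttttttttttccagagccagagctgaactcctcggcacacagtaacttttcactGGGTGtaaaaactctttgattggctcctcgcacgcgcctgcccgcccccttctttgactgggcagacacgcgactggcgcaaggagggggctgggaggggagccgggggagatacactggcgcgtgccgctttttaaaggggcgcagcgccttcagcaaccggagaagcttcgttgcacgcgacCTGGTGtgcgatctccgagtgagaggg
Foxa3, chr7:19023490-19023789, minus strand: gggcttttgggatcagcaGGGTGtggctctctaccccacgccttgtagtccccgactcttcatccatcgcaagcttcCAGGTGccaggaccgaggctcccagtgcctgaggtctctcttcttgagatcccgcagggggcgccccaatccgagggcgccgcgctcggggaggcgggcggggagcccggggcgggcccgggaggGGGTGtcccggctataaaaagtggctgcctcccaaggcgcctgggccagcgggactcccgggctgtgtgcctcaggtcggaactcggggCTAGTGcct
Spdef, chr17:27728902-27729201, minus strand: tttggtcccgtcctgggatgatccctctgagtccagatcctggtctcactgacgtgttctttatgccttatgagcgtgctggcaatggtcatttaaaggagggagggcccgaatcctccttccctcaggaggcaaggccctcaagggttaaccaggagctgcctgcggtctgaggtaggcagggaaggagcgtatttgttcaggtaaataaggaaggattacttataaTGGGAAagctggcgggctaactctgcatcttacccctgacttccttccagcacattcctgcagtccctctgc

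The Atoh1 window held 1 CACCC and 1 CACNAG match. Foxa3 held 2 CACCC, 1 CAGNTG and 1 CACNAG match, and Spdef held a single TGGGAA. Entries were found for 8 of the 10 genes, not for Hes1 and Creb3l1. These 8 have 12 promoters in the table, since Foxa2 has 3 and Gfi1 and Dll1 have 2 each. Counted per promoter, CAGNTG stood in 5 of the 12 (41.7%; in Gfi1, Foxa1, Foxa3, Klf4 and Dll1), against 51.4% of all 32851 promoters of 300 bases. CACNAG stood in 4 (33.3%; in Atoh1, Foxa2, Foxa3 and Dll1), against 42.5%, and CACCC in 7 (58.3%), against 57.5%. TGGGAA stood in 1 (8.33%; Spdef), against 25.6%, and TGTTTAC in 1 (8.33%; Foxa1), against 3.65%. A match is a description of these letters only.

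Gfi1 (ENSMUSG00000029275), a zinc finger repressor that acts below Atoh1 and keeps goblet and Paneth precursors from the enteroendocrine path, had 3.54, 4.86 and 5.89 TPM as lowest, median and highest value in ERBB3-dIE mice, against 2.31, 2.66 and 3.58 TPM in Erbb3-FF mice. The groups overlapped by a single pair of mice, ERBB3-dIE mouse 5 at 3.54 TPM and Erbb3-FF mouse 1 at 3.58 TPM, which came from different litters. The log2 difference was 0.59 (SE 0.11, 95% interval 0.34 to 0.84). Gfi1 over Atoh1 was 0.147 ± 0.0216 in ERBB3-dIE mice and 0.148 ± 0.0267 in Erbb3-FF mice, so Gfi1 and Atoh1 differed between the genotypes by nearly the same factor.

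Spdef (ENSMUSG00000024215), an ETS factor that drives the maturation of goblet and Paneth cells, had the largest difference of the 10. Its values were 36.9, 41.6 and 43.8 TPM in ERBB3-dIE mice of litter B and 61.7, 46.6 and 50.8 TPM in ERBB3-dIE mice of litter A, against 19.4 and 16.2 TPM in Erbb3-FF mice of litter B and 19.1, 29.7, 23.3 and 25.0 TPM in Erbb3-FF mice of litter A. The genotypes did not overlap, and within each genotype the litter A mice were above the litter B mice except for Erbb3-FF mouse 3. The means were 46.9 ± 8.63 TPM in ERBB3-dIE and 22.1 ± 4.89 TPM in Erbb3-FF (SD, n = 6 each), a ratio of 2.12, and the log2 difference was 1.14 (SE 0.12, 95% interval 0.89 to 1.40). Per unit of Atoh1, Spdef came to 1.46 ± 0.279 in ERBB3-dIE and 1.14 ± 0.221 in Erbb3-FF, with overlapping ranges.

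Creb3l1 (ENSMUSG00000027230), a membrane-bound factor of the CREB3 family released from the endoplasmic reticulum of secretory cells, had a litter difference as well as a genotype difference. ERBB3-dIE mice of litter B had 27.1, 25.2 and 29.1 TPM and those of litter A 53.6, 46.4 and 46.6 TPM. Erbb3-FF mice of litter B had 16.2 and 17.3 TPM, and those of litter A had 13.6, 34.5, 25.7 and 28.9 TPM. Within each litter every ERBB3-dIE mouse was above every Erbb3-FF mouse, but ERBB3-dIE mice of litter B overlapped Erbb3-FF mice of litter A. The log2 difference between genotypes was 0.86 (SE 0.19, 95% interval 0.44 to 1.27), and 0.70 without Erbb3-FF mouse 3. Creb3l1 over Atoh1 was 0.773 to 0.886 in the 3 ERBB3-dIE mice of litter B and averaged 1.57 ± 0.0672 in the 3 of litter A (SD). In Erbb3-FF mice the same ratio was 0.857 and 0.860 in litter B and 1.29 to 1.65 in litter A mice 4 to 6, with mouse 3 at 0.792. The ratio thus differed by litter and, apart from Erbb3-FF mouse 3, lay in similar ranges in both genotypes.

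**Figure D2:**
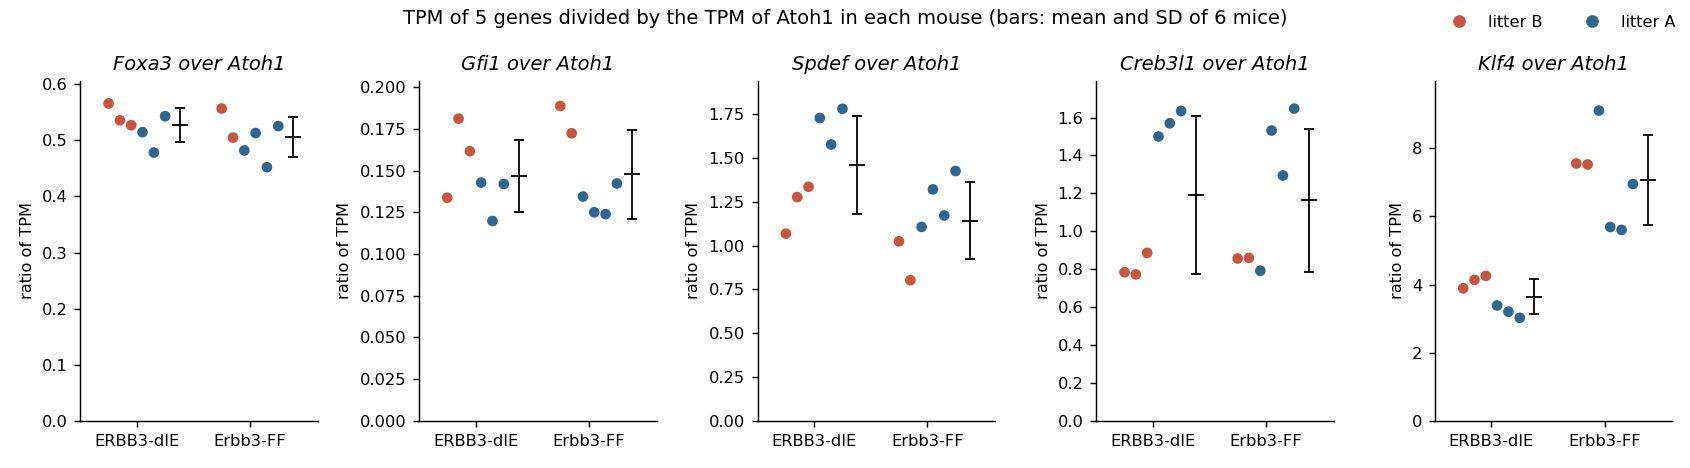
TPM of Foxa3, Gfi1, Spdef, Creb3l1 and Klf4 divided by the TPM of Atoh1 in the same mouse, ERBB3-dIE left of Erbb3-FF, litter by colour, with mean and SD of 6 mice. Foxa3 over Atoh1 stays between 0.452 and 0.566 in all 12 mice, Creb3l1 over Atoh1 forms a low and a high level with Erbb3-FF mouse 3 at the low one, and Klf4 over Atoh1 is lower in all ERBB3-dIE mice, whose Atoh1 is higher.

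The other 2 forkhead genes of the family, Foxa1 and Foxa2, which act together in goblet and enteroendocrine cells, were less distinct than Foxa3. Foxa1 (ENSMUSG00000035451) averaged 16.8 ± 4.59 TPM in ERBB3-dIE mice and 14.0 ± 2.58 TPM in Erbb3-FF mice, with a log2 difference of 0.30 (SE 0.14, 95% interval −0.01 to 0.61). Foxa2 (ENSMUSG00000037025) averaged 3.23 ± 0.781 TPM in ERBB3-dIE and 2.32 ± 0.760 TPM in Erbb3-FF (SD, n = 6 each), with a log2 difference of 0.39 (SE 0.20, 95% interval −0.05 to 0.83). Both intervals hold 0, and both pairs of groups overlapped within each litter. The 3 genes together came to 33.9 to 46.6 TPM in ERBB3-dIE and 22.3 to 33.0 TPM in Erbb3-FF. Foxa3 made up 46.4% ± 7.36 of that sum in ERBB3-dIE and 37.7% ± 2.75 in Erbb3-FF (SD, n = 6 each).

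Klf4 (ENSMUSG00000003032), a zinc finger factor of differentiated epithelium that is needed for full goblet cell maturation in the colon, did not follow Atoh1. It had 86.2, 128 and 139 TPM as lowest, median and highest value in ERBB3-dIE mice and 111, 136 and 157 TPM in Erbb3-FF mice, with wide overlap. Its log2 difference was −0.26 (SE 0.11, 95% interval −0.50 to −0.02). In litter B all 3 ERBB3-dIE mice (134, 135 and 139 TPM) lay below both Erbb3-FF mice (143 and 151 TPM), and in litter A the groups overlapped. Klf4 over Atoh1 was 3.02 to 4.25 in ERBB3-dIE mice and 5.60 to 9.10 in Erbb3-FF mice. Since Klf4 overlapped between the genotypes and Atoh1 did not, this ratio largely restates the Atoh1 difference.

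Hes1 (ENSMUSG00000022528), the repressor that Notch induces, had 18.5, 20.6 and 27.5 TPM in ERBB3-dIE mice of litter B and 32.7, 31.9 and 32.0 TPM in those of litter A. Erbb3-FF mice had 17.6 and 17.5 TPM in litter B and 13.3, 27.0, 23.4 and 21.4 TPM in litter A. Within each litter all ERBB3-dIE mice were above all Erbb3-FF mice, although over both litters the groups overlapped. The log2 difference was 0.50 (SE 0.16, 95% interval 0.14 to 0.86), in the same direction as that of Atoh1, which Hes1 is known to repress. When 1 mouse was left out, the Hes1 difference ran from 0.38 to 0.56. Dll1 (ENSMUSG00000014773), the ligand that secretory precursors show to their neighbours, had 5.21, 9.14 and 12.2 TPM as lowest, median and highest value in ERBB3-dIE mice and 6.51, 9.68 and 11.6 TPM in Erbb3-FF mice. Its groups overlapped almost fully, and its log2 difference was −0.14 (SE 0.18, 95% interval −0.52 to 0.25). Dll1 over Atoh1 was 0.279 ± 0.0806 in ERBB3-dIE and 0.489 ± 0.131 in Erbb3-FF (SD, n = 6 each), which largely restates the Atoh1 difference.

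Markers of crypt cells were summed in the same libraries and are given beside Hes1. The 5 stem cell markers summed to 85.6, 99.2 and 191 TPM in ERBB3-dIE mice of litter B, to 211, 195 and 249 TPM in those of litter A, to 80.0 and 106 TPM in Erbb3-FF mice of litter B, and to 40.3, 197, 234 and 215 TPM in Erbb3-FF mice of litter A. The 5 dividing cell markers ran alike, from 80.6 TPM in Erbb3-FF mouse 3, which also had the lowest Hes1, to 240 TPM in ERBB3-dIE mouse 4, which had the highest. Within litter A the stem cell sums of ERBB3-dIE mice (195 to 249 TPM) overlapped those of Erbb3-FF mice 4 to 6 (197 to 234 TPM). The Hes1 values of the same mice did not overlap. The part of crypt cell content in the Hes1 values was not tested.

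**Figure D3:**
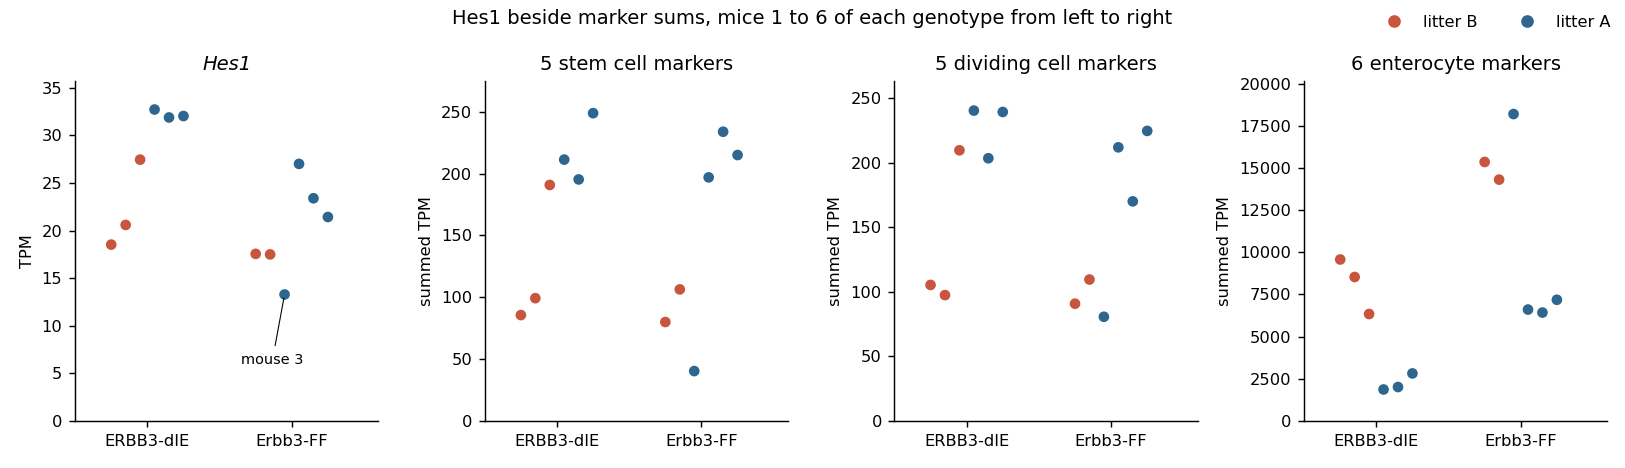
Hes1 TPM and the summed TPM of stem cell, dividing cell and enterocyte markers in each mouse, ERBB3-dIE left of Erbb3-FF, litter by colour. Erbb3-FF mouse 3 has the lowest Hes1 (13.3 TPM) and stem cell sum (40.3 TPM) and the highest enterocyte sum (18192 TPM), away from the other litter A mice.

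In the fit over all 12605 tested genes with litter and genotype as terms, 5 of the 10 genes passed an adjusted p of 0.05 between genotypes, all higher in ERBB3-dIE: Atoh1, Gfi1, Spdef, Creb3l1 and Foxa3. Of all tested genes 1.66% were called higher and 3.7% lower. Atoh1, Spdef and Foxa3 did not overlap between the 2 groups of 6, as 2.44% of all genes did not in either direction. Atoh1, Gfi1, Spdef, Creb3l1, Foxa3 and Hes1 were higher without overlap in litter B and again in litter A, as were 2.46% of all genes. Since the genes were chosen on this contrast, nothing is read from these counts. The authors' deposited table gives log2 fold changes of 0.74 for Atoh1, 0.75 for Gfi1, 1.09 for Spdef, 0.76 for Creb3l1 and 0.81 for Foxa3, and there Hes1, at 0.45 with an adjusted p of 0.000875, is a sixth past 0.05.

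Markers of other cell types were summed in the same libraries. The 6 enteroendocrine markers, products of another Atoh1-dependent lineage, summed to 515 to 611 TPM in ERBB3-dIE libraries and 360 to 410 TPM in Erbb3-FF mice without overlap, and none was at 0. Most of that gap came from the hormone genes Sct (281 TPM in ERBB3-dIE, 176 in Erbb3-FF) and Gcg (189 and 119 TPM). The general endocrine markers Chga (27.1 TPM in ERBB3-dIE, 31.6 in Erbb3-FF) and Chgb (35.8 and 39.0 TPM) had lower means in ERBB3-dIE. The 6 Paneth cell markers overlapped, at 5428 to 12205 TPM in ERBB3-dIE and 3878 to 13375 TPM in Erbb3-FF, as did the 6 tuft cell markers at 9.97 to 20.0 TPM and 7.25 to 26.7 TPM. The 6 B cell markers, of which Cr2 was at 0 in 1 library, were high in Erbb3-FF mice 1 to 3 alone. With their score as a covariate 1 of the 10 genes was called (Spdef), and Atoh1 had a log2 difference of 0.63 (adjusted p = 0.05001, just above the threshold). Without Erbb3-FF mice 1, 2 and 3 the differences were 0.63 for Atoh1, 1.01 for Spdef, 0.66 for Foxa3 and 0.72 for Creb3l1, and again Spdef alone was called. Over all tested genes 48 were called with the covariate and 35 without these mice, against 676 in the main fit. Erbb3-FF mice 4 to 6, with B cell sums of 4.46 to 7.95 TPM, had 17.6 to 22.5 TPM of Atoh1, below every ERBB3-dIE mouse. The part of B cell content in the genotype differences was not tested. Without ERBB3-dIE mice 4 and 5, and likewise without Erbb3-FF mice 5 and 6, the 3 genes called were Atoh1, Spdef and Foxa3, and without Erbb3-FF mouse 3 all 5 were. The call of Creb3l1 was lost on leaving out any 1 of ERBB3-dIE mice 3, 4, 5 or 6 or Erbb3-FF mice 1 or 2 (adjusted p 0.0523 to 0.0707), without the litter term (0.179) and without the filter on low values (0.0586).

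**Figure D4:**
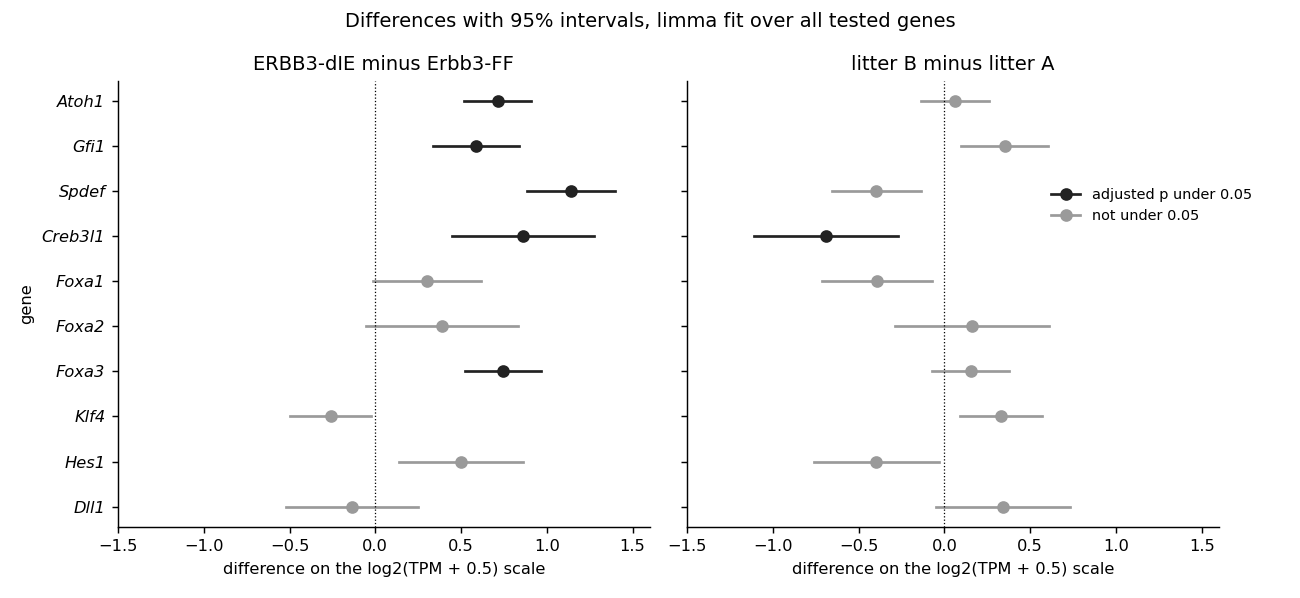
Differences of the 10 genes on the log2(TPM + 0.5) scale with 95% intervals, ERBB3-dIE minus Erbb3-FF at the left and litter B minus litter A at the right, dark where the adjusted p over all tested genes is under 0.05. Spdef has the largest genotype difference (1.14), and Creb3l1 is the only gene dark in both panels (0.86 and −0.69).

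The litter contrast was tested, although earlier results of these data were known when the genes were chosen. Creb3l1 fell in litter B, with a log2 difference of −0.69 (SE 0.19, adjusted p = 0.0480), averaging 23.0 ± 5.84 TPM in litter B (n = 5) and 35.6 ± 14.1 TPM in litter A (SD, n = 7). It was the only one of the 10 called, where 7.16% of all tested genes were called higher and 1.4% lower in litter B. Atoh1 and Foxa3, the genes that ran together across genotypes, had litter differences of 0.06 (95% interval −0.14 to 0.26, adjusted p = 0.678) and 0.15 (−0.07 to 0.38, adjusted p = 0.334), and that of Atoh1 changed sign under 3 of 4 other scalings. Spdef (−0.40, adjusted p = 0.0601), Hes1 (−0.40, 0.141) and Foxa1 (−0.39, 0.103) were lower in litter B, and Klf4 (0.33, 0.0801), Gfi1 (0.35, 0.0780), Dll1 (0.34, 0.226) and Foxa2 (0.16, 0.628) higher, all short of the threshold.

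The litter calls changed when single mice were left out. Without Erbb3-FF mouse 3, 5 genes were called: Creb3l1 (−0.82, adjusted p = 0.000388), Hes1 (−0.50, 0.00857), Spdef (−0.44, 0.0134) and Foxa1 (−0.44, 0.0423) lower in litter B, and Klf4 (0.38, 0.0146) higher. Leaving out any 1 of the other 11 mice ended the call of Creb3l1 (adjusted p 0.0695 to 0.108) and left none of the 10 called. Whether the genotype difference itself differed by litter was tested with an interaction term in limma. It called 0 of the 10 genes and 0 of all tested genes (0%), with 1174 genes (9.31%) but none of the 10 at an unadjusted p under 0.05.

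A list of 16 goblet cell genes, called products here, was put through the same contrasts. It was drawn up with earlier results of these data known, and it includes genes whose protein is not secreted, such as Ern2. Of 16 products tested, 9 rose in ERBB3-dIE mice and 0 fell, with a median log2 difference of 0.76, beside −0.000658 over all tested genes. Among all tested genes 1.66% were called higher and 3.7% lower in ERBB3-dIE. Reg4, a lectin-like secreted protein, rose by 2.19 (SE 0.51, adjusted p = 0.0338), Spink4, a protease inhibitor, by 1.74 (SE 0.29, 0.00843), Klk1, a kallikrein protease, by 1.13 (SE 0.19, 0.00867), and Agr2, the disulfide isomerase that folds Muc2, by 1.07 (SE 0.16, 0.00568). The call of Reg4 was lost without any 1 of 7 mice (ERBB3-dIE mice 1, 3, 4, 5 and 6, Erbb3-FF mice 1 and 6; adjusted p 0.0570 to 0.0871). Over 32 alternatives, left-out mice included, Spink4 lost its call in 6, and Klk1 and Agr2 in 5 each. By litter, 5 products rose in litter B: Clca1 (1.35), Fcgbp (1.13), Zg16 (0.94), Tff3 (0.89) and Guca2a (0.56), with adjusted p from 0.0226 to 0.0437. Of these Clca1, Fcgbp, Zg16 and Tff3 are secreted into or bound in mucus, and Guca2a is the precursor of guanylin. The stress sensor of the goblet cell endoplasmic reticulum, Ern2, fell in litter B by 0.68 (adjusted p = 0.0212), and the secreted Retnlb had a difference of −4.49 (adjusted p = 0.0393). Among all tested genes 7.16% were called higher and 1.4% lower in litter B.

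Of the 7 products called by litter 1 was also called by genotype (Ern2), and of the 9 others 8 were. Each of the 7 litter calls was lost on leaving out single libraries, in 4 of 12 cases for Zg16 (ERBB3-dIE mice 1, 2, 4 and 5) and for Ern2 (ERBB3-dIE mice 1, 2 and 4 and Erbb3-FF mouse 1), 8 for Clca1 and Tff3, 10 for Fcgbp and Retnlb and 11 for Guca2a, with adjusted p of at most 0.107. None of the 7 was lost without Erbb3-FF mouse 3. The products called lower in litter B were thus on the side of Creb3l1, and the 5 called higher were on the other. Summed over the 16 products, TPM per TPM of Creb3l1 was 1773 to 2667 in ERBB3-dIE mice of litter B, 776 to 834 in ERBB3-dIE mice of litter A, 1831 and 1954 in Erbb3-FF mice of litter B, and 748 to 814 in Erbb3-FF mice 4 to 6 of litter A, with mouse 3 at 2328. The product sum averaged 50568 TPM in ERBB3-dIE mice and 27306 TPM in Erbb3-FF mice. Zg16 (15169 and 9204 TPM), Tff3 (7948 and 4820), Clca1 (7860 and 3891) and Fcgbp (3678 and 2356) made up most of it. Since these were called higher in litter B and Creb3l1 lower, the ratio largely restates those calls.

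**Figure D5:**
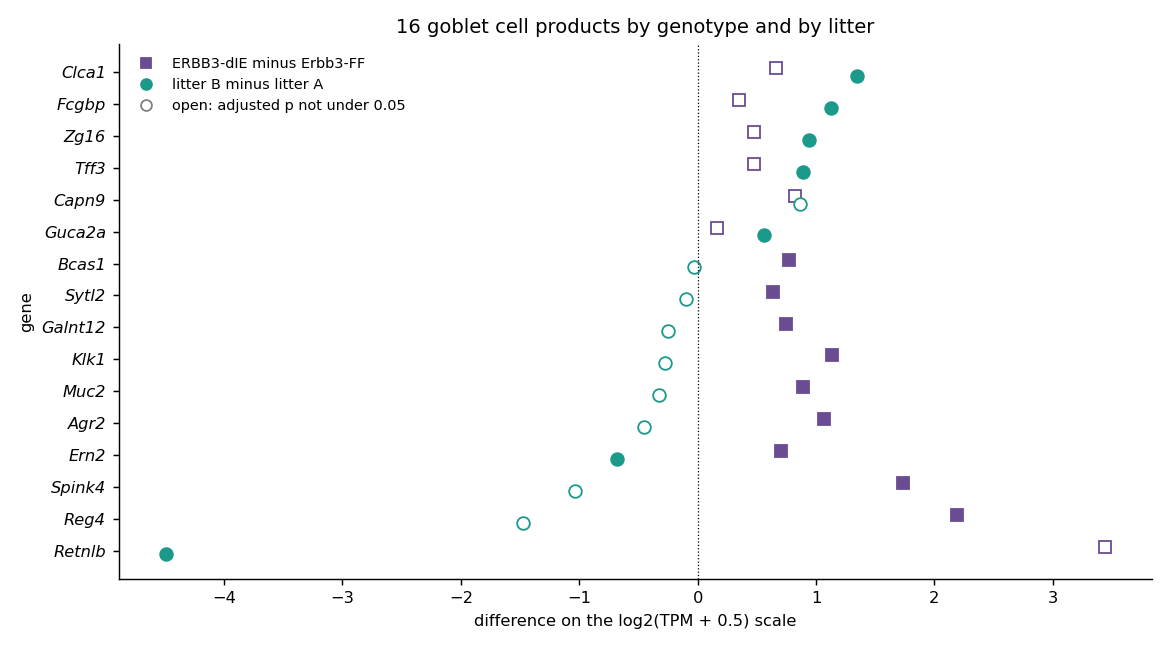
Differences of 16 goblet cell products on the log2(TPM + 0.5) scale, ERBB3-dIE minus Erbb3-FF as squares and litter B minus litter A as circles, filled where the adjusted p is under 0.05. Clca1 (1.35) and 4 others at the top and Retnlb (−4.49) at the bottom are filled for litter, Spink4 (1.74) and 7 others for genotype, Ern2 for both and Capn9 for neither.

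On the 4 lists of Notch pathway genes, Hes1 included, 2 of 28 tested genes (7.14%) were called between genotypes, beside 676 of all 12605 tested genes (5.36%). Of 6 tested receptors and ligands, Notch4, a receptor best known from endothelium, rose by 1.97 (SE 0.51, adjusted p = 0.0469). It averaged 5.46 TPM in ERBB3-dIE mice and 0.805 TPM in Erbb3-FF mice, the latter under the 1 TPM used in the filter on low values. The Notch4 call was lost without any 1 of 9 mice (ERBB3-dIE mice 3 to 6 and Erbb3-FF mice 2 to 6; adjusted p 0.0683 to 0.115). Fitted by litter, the Notch4 difference was 0.67 in litter B alone (adjusted p = 0.782) and 2.88 in litter A alone (0.0454), and its interaction with litter was −2.21 (limma adjusted p = 0.431). Summed endothelial markers averaged 6.98 TPM in ERBB3-dIE and 4.77 TPM in Erbb3-FF mice of litter A, and 3.52 and 6.38 TPM in litter B. The part of endothelial content in the Notch4 values was not tested. Of 11 tested genes of receptor cleavage and the Notch transcription complex, 0 were called in either direction in the limma fit, and nicastrin (Ncstn), a subunit of gamma-secretase, came nearest at −0.24 (adjusted p = 0.149). Of 9 tested genes of Notch glycosylation and trafficking, Numb, an inhibitor of Notch that is passed on unequally in cell division, fell by 0.39 (SE 0.09, adjusted p = 0.0391), a call lost without any 1 of 9 mice (ERBB3-dIE mice 1 to 5 and Erbb3-FF mice 1, 2, 4 and 6; adjusted p 0.0602 to 0.0993). Of the 6 Notch targets listed 2 were tested, Hes1 and Nrarp, a feedback inhibitor of Notch, whose difference of 0.28 missed the threshold (adjusted p = 0.398).

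Among 14 partners and repressors of bHLH factors, Id4, a protein that binds bHLH factors and keeps them off DNA, rose by 0.82 (SE 0.17, adjusted p = 0.0233), to 6.33 TPM in ERBB3-dIE against 3.46 TPM in Erbb3-FF. Its call was lost without ERBB3-dIE mouse 4 or 5 or Erbb3-FF mouse 1 (adjusted p 0.0549 to 0.0658). Tle3, a co-repressor of the Groucho family with which Hes factors work, fell by 0.77 (SE 0.12, adjusted p = 0.00751), to 31.8 TPM in ERBB3-dIE against 52.6 TPM in Erbb3-FF, and kept its call in each fit that left out 1 mouse. Over 32 alternatives the call of Tle3 was lost in 5 (limma adjusted p up to 0.147). The other 12 of these genes did not pass. Among all tested genes 1.66% were called higher and 3.7% lower.

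Relatives of the 10 genes gave 1 rise and 1 fall among 16 tested, where 1.66% of all tested genes were called higher and 3.7% lower. Creb3l4, a CREB3 family member close to Creb3l1, rose by 0.70 (SE 0.14, adjusted p = 0.0193; 0.0587 without Erbb3-FF mouse 1). Foxo3, a forkhead factor restrained by growth factor signalling, fell by 0.53 (SE 0.11, adjusted p = 0.0187; 0.0546 and 0.0570 without Erbb3-FF mouse 1 or 2). Of 13 enterocyte transcription factors 2 fell and 0 rose: Creb3l3, a CREB3 family member of enterocytes and liver, by 2.15 (SE 0.34, adjusted p = 0.00744), and Hnf4g, a nuclear receptor of enterocyte identity, by 0.58 (SE 0.12, adjusted p = 0.0247; 0.0555 without Erbb3-FF mouse 6). The call of Creb3l3 was lost in 5 of 32 alternatives (limma adjusted p up to 0.161). The enterocyte markers beside these 2 factors summed to 1863 to 9569 TPM in ERBB3-dIE mice and 6423 to 18192 TPM in Erbb3-FF mice. The part of enterocyte content in these falls was not tested. The 3 CREB3 relatives thus went in both directions, with Creb3l1 and Creb3l4 higher and Creb3l3 lower.

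Factors of the single secretory lineages were mostly too low to test. Of 10 enteroendocrine factors 1 passed the filter, Neurod1, at 1.38 TPM in ERBB3-dIE and 1.30 TPM in Erbb3-FF (log2 difference 0.05, adjusted p = 0.892). Of 8 tuft, Paneth and stem cell factors 5 were tested and 0 called by limma, the nearest being Ascl2, a stem cell factor, at 3.43 TPM in ERBB3-dIE and 1.83 TPM in Erbb3-FF (log2 difference 0.72, adjusted p = 0.0864; 0.0482 without ERBB3-dIE mouse 1).

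How the 10 genes varied among mice of one kind was described by Pearson correlations over the 12 libraries after litter and genotype means were removed. All points share their library's scaling to a fixed total. The 10 pairs among Atoh1, Gfi1, Spdef, Creb3l1 and Foxa3 all had positive r, from 0.43 to 0.85, the highest being Atoh1 with Foxa3. Positive r was not particular to these genes, which were those called between genotypes. Foxa1, which was not called, had r of 0.54 to 0.76 with them, and Hes1, also not called, 0.38 to 0.89. Of all 45 pairs of the 10 genes, 33 had positive r. All 9 pairs with Dll1 were negative, from −0.79 with Atoh1 to −0.29. Creb3l1 and Hes1 had r = 0.89, and 0.68 without Erbb3-FF mouse 3.

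The genes most like Atoh1 by this measure, among 8333 with a mean of at least 5 TPM, were Pla2g10 (r = 0.89), a secreted phospholipase, Foxa3 itself (0.85), Trim41 (0.84) and Tmf1 (0.83), a Golgi protein. Those most like Spdef were Sema6d (0.94), Smg5 (0.92), Dcun1d2 (0.90) and Limk2 (0.90). Hes1 was matched most closely by Dtymk (0.98), the thymidylate kinase of DNA synthesis, Tomm5 (0.98), a subunit of the mitochondrial import pore, Tceal9 (0.98) and Iars (0.97), a tRNA synthetase. Without Erbb3-FF mouse 3 these 4 had r of 0.94 to 0.95. The genes named hold the highest of 8333 values of r over 12 libraries, a choice that favours high r by itself. How high r would run by chance was not assessed.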

How the data were processed

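One library per mouse was made from ileal mucosa; grouping by genotype, litter and mouse number followed the labels. Tools named in the submitters' processing notes are Salmon 1.10.0, DESeq2 and CASAVA, with build GRCm39; the sources used here do not state the authors' filters or design. The deposited table holds TPM per gene and library, computed by the authors, their mean normalised count (baseMean, a signal averaged over all libraries), their log2 fold change (ERBB3-dIE over Erbb3-FF) with its standard error, and the p-values of the authors' test, raw and adjusted. TPM divide by gene length and library total, so a rise of abundant genes lowers all others.

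Since TPM are not counts, values were taken as log2(TPM + 0.5), kept for the 12605 genes that reached 1 TPM in 6 or more libraries, and fitted in R 4.3.3 by limma 3.58.1 (lmFit, eBayes with trend), with litter and genotype as terms, and their product in a second model. The Benjamini-Hochberg adjustment ran over every gene in the fit, and calls are at 0.05. The scale understates changes of low genes. Labels do not say more of the mice than litter, so p-values measure the spread between these mice. The steps were tested on simulated data. The 10 genes, the gene lists and the naming rule (up to 4 called genes per list by size, or else the smallest p, and 4 genes by correlation) were chosen with earlier results of these data known. Alternatives covered pseudocount, filter, scaling, variance, weights, covariates, mouse number as a block, single litters and left-out libraries.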

Additional observations from a re-analysis of the deposited data

Results flagged for a closer look

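Of 50 groups of 4 to 7 mice examined for the 10 genes, 1 held a sample far from the others by its gap to the nearest value. Foxa1 in Erbb3-FF mice had mouse 4 at 18.99 TPM, and the other 5 lay between 11.93 and 13.98 TPM, so that the gap was 0.709 of the whole range. The same mouse had the highest Spdef (29.7 TPM), Creb3l1 (34.5 TPM) and Hes1 (27.0 TPM) of its genotype. Chance flags about 1 in 20 groups.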

How the results depend on the processing

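Depth per library is unknown, and 12 mice in unequal litters limit the precision. Of the 10 genes 5 were called between genotypes; the count was 1 with a B cell covariate, 0 in litter A alone, 0 in litter B alone, 4 without the litter term and 4 without a filter (Creb3l1 lost in both), 4 with a mean of at least 5 TPM (Gfi1 not tested there), and 4 to 5 without 1 mouse. In fits chosen after seeing the data it was 3 without ERBB3-dIE mice 4 and 5, 3 without Erbb3-FF mice 5 and 6, and 1 without Erbb3-FF mice 1 to 3. All 5 stayed positive under each alternative run, Atoh1 from 0.63 to 0.84, Gfi1 from 0.51 to 0.75, Spdef from 1.01 to 1.27, Creb3l1 from 0.61 to 0.99 and Foxa3 from 0.65 to 0.87. Numbers of all genes called between genotypes ran from 6 (litter A alone) to 1950 (the authors' test), beside 676. They were 15 in litter B alone, 48 with the B cell covariate, 243 without the litter term and 350 without a filter. Between litters 1 gene was called; the count was 0 without a filter, 2 under each of 4 other scalings (Spdef added), 4 with library weights, 0 with a smooth muscle or a B cell covariate, 0 without ERBB3-dIE mice 4 and 5 or Erbb3-FF mice 5 and 6, and 0 to 5 without 1 mouse. Numbers of all genes called between litters ran from 0 to 3059, beside 1078. Causes were not tested.

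Scaling to epithelial markers moved the median of all genes by 0.12 between genotypes and −0.14 between litters, and scaling without mitochondrial and ribosomal genes by −0.12 between litters. Called genes split into 209 higher and 467 lower in ERBB3-dIE, but 560 and 256 under epithelial scaling and 422 and 484 under upper-quartile scaling. Between litters the split was 902 higher and 176 lower in litter B, but 447 and 323 (median of ratios), 511 and 367 (upper quartile), 421 and 287 (without mitochondrial and ribosomal genes) and 224 and 335 (epithelial).

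Mouse numbers did not pair the samples (correlations of same-numbered mice −0.393 to 0.074); with mouse number as a replicate block in place of litter the count stayed at 5, and 755 genes were called.

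Small values changed sign. Between genotypes Dll1 gave 0.000903 in litter B alone and 0.0714 without ERBB3-dIE mice 4 and 5, and Neurod1 −0.0924 in litter B alone and −0.0405 to 0.106 without 1 mouse. Between litters Atoh1 gave −0.0194 (upper quartile), −0.0661 (without mitochondrial and ribosomal genes) and −0.0854 (epithelial), and Foxa2 −0.0404 without Erbb3-FF mice 1 to 3 and −0.0186 to 0.265 without 1 mouse. For the interaction, epithelial scaling gave −0.0144 for Atoh1, −0.0300 for Spdef and −0.0332 for Foxa3. The B cell covariate gave −0.102, −0.205 and −0.150 for the same 3 genes. Without 1 mouse Atoh1 ran from −0.00508 to 0.168, Gfi1 from −0.227 to 0.00778, Spdef from −0.0733 to 0.186 and Foxa3 from −0.0410 to 0.152. Gfi1 gave 0.0268 under median-of-ratios scaling, Dll1 −0.0891 with the smooth muscle covariate, and without ERBB3-dIE mice 4 and 5 Foxa2 gave 0.161 and Dll1 −0.176.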
